A study of Mus musculus with 12 samples.

Results

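Alpha cells, which secrete glucagon, and delta cells, which secrete somatostatin, are minority endocrine cells of the pancreatic islet. Described here are 7 genes that mark these lineages without encoding their hormones. The alpha-cell genes are Irx1, Irx2, Gc and Ttr, 4 in number, and the delta-cell genes are Hhex, Casr and Rbp4, 3 in number. They were taken by symbol, with no threshold on measured values, and all 7 were found among the 14089 genes of the count table.

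Islets of C57BL/6J mice were cultured for 24 hours in 4 conditions, with 3 RNA sequencing libraries in each. The conditions were a cytokine mixture plus ML351 (called the combination), the cytokine mixture alone, ML351 alone at 10 µM, and vehicle. The mixture held IL-1β at 5 ng/ml, TNF-α at 10 ng/ml and IFN-γ at 100 ng/ml, and ML351 inhibits 12/15-lipoxygenase, which adds oxygen to polyunsaturated fatty acids. The question was how this inhibition alters the islet response to inflammation. Both cytokine groups and both groups without cytokines came from whole islets of a strain with no engineered allele named, so the cell of origin of a read was not recorded. The labels give neither the ages of the mice nor whether libraries came from separate animals or cultures, and p-values therefore cover the spread among these libraries, which may be technical.

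Irx1 and Irx2 encode Iroquois homeodomain transcription factors that mark alpha cells in mouse islets. Gc encodes the vitamin D-binding protein and Ttr encodes transthyretin, a carrier of thyroid hormone, and both are best known as plasma proteins made in the liver. Hhex encodes a homeodomain repressor that mouse delta cells need for their differentiation, and Casr encodes the calcium-sensing receptor, a G protein-coupled receptor for extracellular calcium. Rbp4 encodes the plasma carrier of retinol, which travels in blood bound to transthyretin.

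Irx1 (chr13:71957921-71963723, minus strand) and Irx2 (chr13:72628820-72634198, plus strand) are neighbours on chromosome 13 of GRCm38, 665097 bases apart with 0 protein-coding genes annotated between them. Gc lies at chr5:89417522-89457898 (minus strand), Casr at chr16:36493696-36562141 (minus strand), Hhex at chr19:37434810-37440731 (plus strand) and Rbp4 at chr19:38116629-38125281 (minus strand). No exon of another GENCODE M21 gene overlapped an exon of any of the 7.

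Promoter windows, 250 bases before to 50 bases after the annotated start, were at hand from RefSeq on GRCm38.p6 for Gc, Irx2, Hhex, Casr and Rbp4. Those of Gc, Irx2 and Hhex are shown because they are the smallest faller with cytokines, one of the largest, and the gene that differed with the inhibitor. In Gc the capitals mark a pair of overlapping HNF1 core matches, and in Irx2 and Hhex they mark CG dinucleotides.
Gc, chr5:89457849-89458148, minus strand, in the sense of the gene: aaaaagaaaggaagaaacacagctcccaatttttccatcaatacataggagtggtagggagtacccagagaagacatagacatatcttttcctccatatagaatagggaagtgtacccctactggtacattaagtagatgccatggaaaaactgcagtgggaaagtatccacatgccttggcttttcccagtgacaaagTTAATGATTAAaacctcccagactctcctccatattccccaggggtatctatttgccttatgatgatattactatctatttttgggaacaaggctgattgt
Irx2, chr13:72628570-72628869, plus strand: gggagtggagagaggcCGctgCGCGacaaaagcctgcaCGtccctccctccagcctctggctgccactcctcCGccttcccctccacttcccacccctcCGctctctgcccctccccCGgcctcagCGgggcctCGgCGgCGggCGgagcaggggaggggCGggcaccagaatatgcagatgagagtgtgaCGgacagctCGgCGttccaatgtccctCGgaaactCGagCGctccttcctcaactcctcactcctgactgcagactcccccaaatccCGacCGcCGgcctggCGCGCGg
Hhex, chr19:37434591-37434890, plus strand: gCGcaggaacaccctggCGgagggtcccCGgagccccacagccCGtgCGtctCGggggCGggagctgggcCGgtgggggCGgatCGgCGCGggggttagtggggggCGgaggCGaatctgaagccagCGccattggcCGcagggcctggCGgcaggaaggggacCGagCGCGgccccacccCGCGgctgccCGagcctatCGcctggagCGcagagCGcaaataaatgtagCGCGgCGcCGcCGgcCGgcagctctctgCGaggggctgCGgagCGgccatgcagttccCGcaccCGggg

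The Gc window was 40.3% G or C and held 0 CG dinucleotides, whereas the windows of the transcription factor genes held many, with 25 in Irx2 (69.0% G or C) and 37 in Hhex (75.7%). The median window of the 32851 in the table held 7 and was 52.7% G or C. Motifs were searched on both strands, with positions counted from the annotated start. The HNF1 core (TTAATNATT) began at -51 on the sense strand of Gc and, read on the antisense strand, covered a run from -49 that overlaps it, and 1.47% of all windows held it. The interferon-stimulated response element core (TTTCNNTTT), held by 10.6% of windows, began at -250 in Gc and at -162 in Casr. The GAS motif of interferon γ signalling (TTCNNNGAA) is held by 8.3% of windows and was in 0 of the 6 windows of the 5 genes. Rbp4 has a window for each of 2 starts, one 72.0% G or C with a TATA box (TATAAA, 13.6% of windows) at -28, and one 40.7% G or C with a forkhead match (TGTTTAC, 3.65% of windows) at -241. A match describes these letters and shows no binding.

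Library totals ran from 20208286 to 27193026 counts. The first principal component held 82.3% of the variance and separated the 6 libraries with cytokines from the 6 without. Cytokine replicate 1 lay at one end of the second component (5.14% of the variance) and ML351 replicate 1 at the other. Values are CPM, counts scaled to the TMM-adjusted library total, with mean ± SD over 3 libraries, and a gene was called at an edgeR adjusted p under 0.05 over all 14089 genes. In vehicle islets the level per kilobase of exon was highest for Ttr, at 835 CPM per kb, followed by Rbp4 (97.2), Gc (74.2), Casr (13.1), Irx2 (4.44), Hhex (2.36) and Irx1 (1.31). With cytokines the order was Ttr (34.4 CPM per kb), Gc (30.3), Rbp4 (15), Casr (1.91), Hhex (0.352), Irx2 (0.249) and Irx1 (0.0308). Gc thus passed Rbp4 in rank and Hhex passed Irx2.

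Cytokines against vehicle asked what an inflammatory environment does to these transcripts, and all 7 fell, with no overlap between groups. Across all genes 37.2% were called lower and 39.4% did not overlap in that direction, so a fall as such was common. The members were chosen with earlier results of these data known, so neither the count nor the sizes of their falls are independent evidence. The median log2 fold change was -2.77 over the 7 members, -4.39 over the alpha-cell genes and -2.76 over the delta-cell genes, beside -0.02 over all genes. In whole islets, fewer cells of a type and less RNA per cell cannot be told apart.

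**Figure D1:**
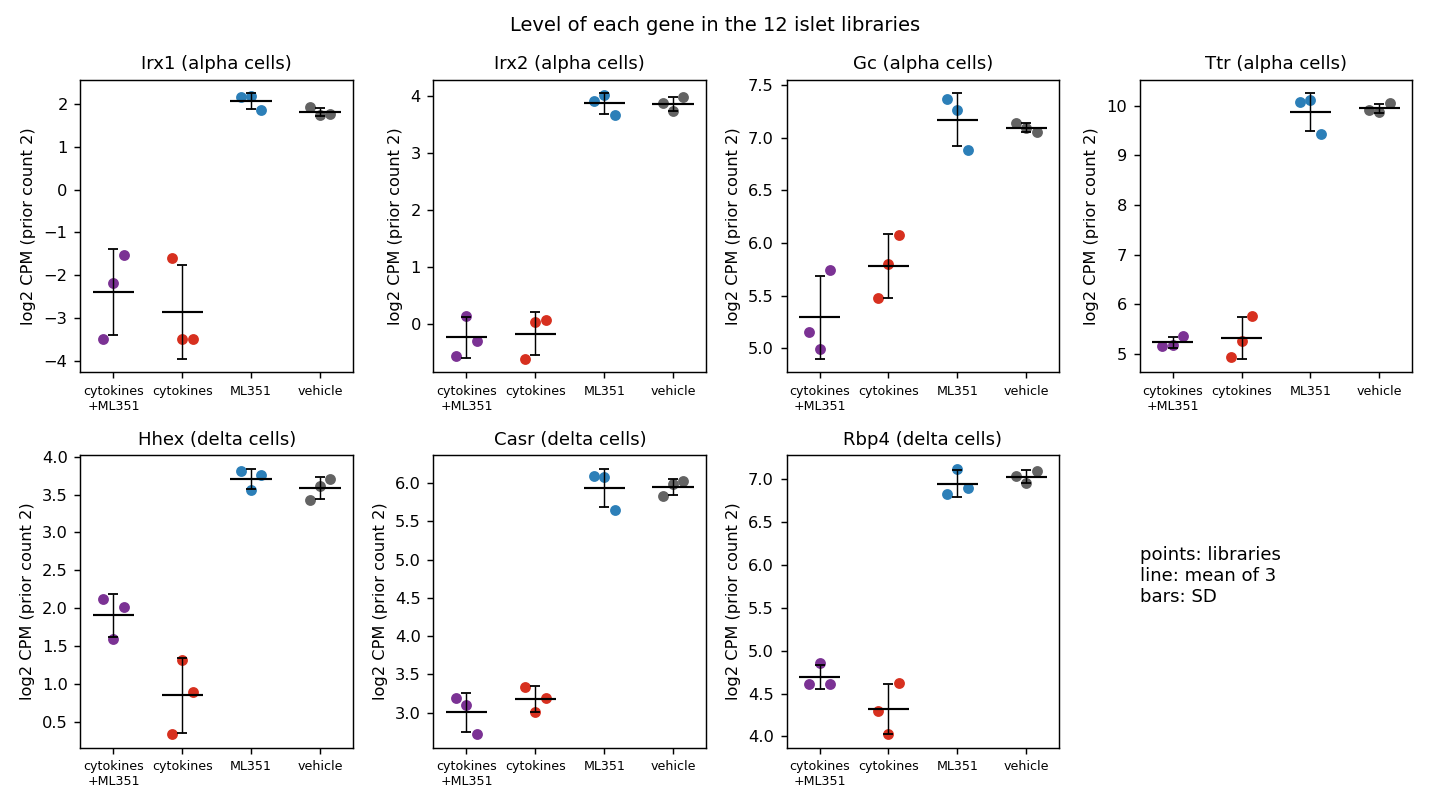
Level of each gene (log2 CPM with a prior count of 2) in the 12 libraries, with 1 point per library, a line at the mean of 3 and bars of SD. In every panel the 6 libraries without cytokines lie above the 6 with cytokines, and Hhex is the gene whose combination and cytokine libraries do not overlap.

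The Iroquois genes were nearly lost. Irx1 had 0.242, 0 and 0 CPM in cytokine replicates 1, 3 and 4, against 3.74, 3.27 and 3.31 CPM in vehicle replicates 1, 2 and 4 (log2 fold change -5.16, SE 0.64, edgeR adjusted p = 3.68e-06). All 6 of its cytokine counts were in replicate 1. Taken over the groups, 6 counts against 230 put the cytokine level at 2.68% of vehicle, with a 95% exact interval of 0.972% to 5.91% that covers counting error only. Leaving out cytokine replicate 1, the only one with reads, left 0 counts by that choice. A floor of 3 counts over both remaining libraries lay 46.2-fold below the vehicle level. That figure is no bound for the cytokine group, whose edgeR estimate over all its libraries was 35.8-fold lower than vehicle. Irx2 had 0.564, 0.932 and 0.957 CPM with cytokines and 14.6, 13.3 and 15.7 CPM with vehicle, leaving 5.56% of the vehicle level (log2 fold change -4.17, SE 0.20, adjusted p = 6.15e-12). Of all genes, 0.39% had a lower fold change than Irx1 and 0.909% a lower one than Irx2.

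The secreted carriers of the alpha-cell set moved by very different amounts. Ttr had 30.3, 38.3 and 53.9 CPM with cytokines and 967, 947 and 1058 CPM with vehicle, which left 4.11% (log2 fold change -4.61, SE 0.26, adjusted p = 2.09e-07). Gc, the vitamin D-binding protein gene, had 44.4, 55.5 and 67.6 CPM with cytokines and 141, 136 and 133 CPM with vehicle, which left 40.7% (-1.30, SE 0.22, adjusted p = 0.000499). For Gc 12.9% of all genes had a lower fold change, against 0.603% for Ttr.

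The 3 delta-cell genes kept 14.6% to 15.4% of their vehicle levels, a narrow range beside the 2.79% to 40.7% of the alpha-cell genes. It did not extend to the 7 measured delta-cell genes outside the set, whose log2 fold changes ran from -3.73 to -1.02. Hhex had 1.17, 2.40 and 1.76 CPM with cytokines and 10.7, 12.2 and 13.0 CPM with vehicle (log2 fold change -2.76, SE 0.21, adjusted p = 1.93e-09). Casr had 10.0, 7.95 and 9.07 CPM with cytokines and 56.8, 63.5 and 65.3 CPM with vehicle (-2.77, SE 0.14, adjusted p = 1.94e-10). Rbp4 had 19.6, 16.3 and 24.6 CPM with cytokines and 131, 124 and 137 CPM with vehicle (-2.70, SE 0.13, adjusted p = 4.7e-10). These 3 genes span a receptor, a transcription factor and a secreted carrier, and their fold changes differed by less than their standard errors.

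The same question was put with the inhibitor present, in the combination against ML351 alone. All 7 genes again fell without overlap, where 36.4% of all genes were called lower and 37.6% did not overlap in that direction. The median log2 fold change was -2.95 over the 7, -4.45 over the alpha-cell genes, -2.26 over the delta-cell genes and -0.02 over all genes. Irx1 had 0, 0.132 and 0.259 CPM in the combination and 4.42, 4.48 and 3.54 CPM with ML351 (8 against 317 counts, 3.09% with an exact counting interval of 1.32% to 6.16%). Irx2 had 0.586, 1.02 and 0.726 CPM in the combination and 15.1, 16.2 and 12.6 CPM with ML351 (log2 fold change -4.22, SE 0.20, edgeR adjusted p = 6.02e-12). Neither Iroquois gene approached its level without cytokines in any combination library.

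Ttr had 35.6, 35.9 and 41.0 CPM in the combination and 1081, 1112 and 696 CPM with ML351 (log2 fold change -4.69, SE 0.26, edgeR adjusted p = 2.05e-07). Gc had 35.5, 31.7 and 53.4 CPM in the combination and 165, 154 and 118 CPM with ML351, and kept 27.5% (-1.86, SE 0.22, adjusted p = 4.92e-05). So Gc was again the alpha-cell gene with the smallest fall. Casr had 9.04, 8.52 and 6.48 CPM in the combination and 67.9, 67.7 and 50.3 CPM with ML351 (-2.95, SE 0.14, adjusted p = 1.26e-10). Rbp4 had 24.3, 29.0 and 24.4 CPM in the combination and 114, 139 and 119 CPM with ML351, and kept 20.9% (-2.26, SE 0.13, adjusted p = 2.58e-09). Hhex kept 28.4%, with 4.25, 2.91 and 3.94 CPM in the combination and 13.9, 11.7 and 13.5 CPM with ML351 (-1.82, SE 0.19, adjusted p = 1.58e-07). Among the delta-cell genes Hhex had the smallest estimate of the fall here. Summed acinar markers were 877 to 1280 CPM in the combination and 89.5 to 211 CPM with ML351, with 9 of 11 called higher (35.2% of all genes were), and their part in these falls was not tested.

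**Figure D2:**
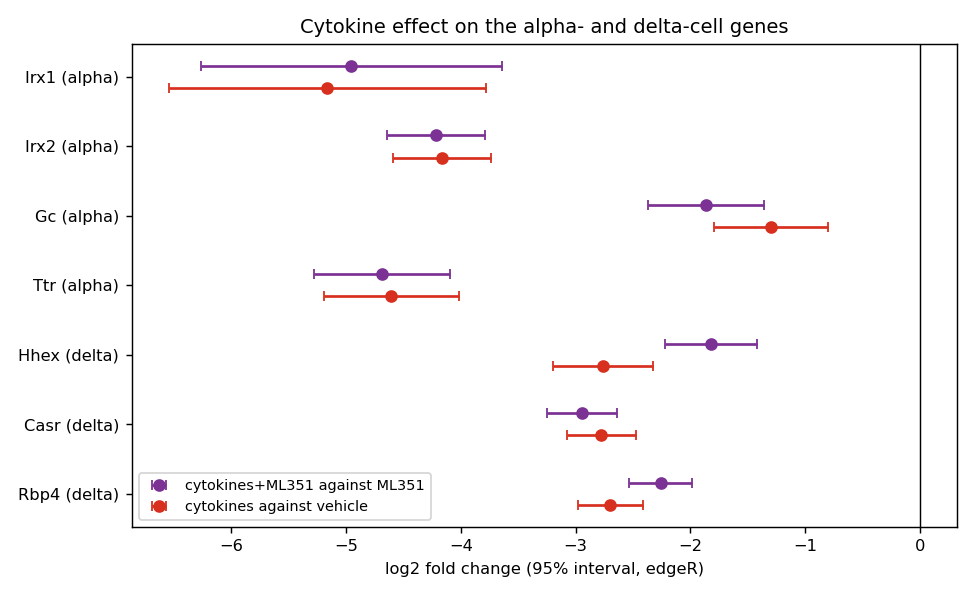
Log2 fold change with its 95% interval for the cytokine effect with the inhibitor (combination against ML351) and without it (cytokines against vehicle). The Iroquois genes and Ttr lie below -4 in both, Gc lies between -1.30 and -1.86, and Hhex lies at -1.82 with the inhibitor and -2.76 without it.

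Ratios of pairs of these genes within a library do not depend on its scaling, and were compared over all 21 pairs with an exact permutation test of the cytokine shift within each inhibitor background (two-sided, 400 rearrangements, smallest p 0.005). This test was added after the data were seen. The ratio shifted in 15 of 21 pairs at a Benjamini-Hochberg adjusted p under 0.05. These pairs reuse the same members, so their tests are not independent. The share of pairs of other genes that would pass was not computed, so the count does not set the members apart. The Gc/Ttr ratio of counts was 0.997, 0.884 and 1.30 in the combination and 0.152, 0.138 and 0.170 with ML351. It was 1.46, 1.45 and 1.25 with cytokines and 0.146, 0.144 and 0.126 with vehicle, a mean shift of 3.05 on the log2 scale (exact permutation p = 0.005, adjusted p = 0.00808). In counts, Gc therefore stood about level with Ttr in the cytokine-treated libraries and far below it in the others. Per kilobase of exon the Gc mean stayed below the Ttr mean with cytokines too. It was 21.8 against 31.6 CPM per kb in the combination and 30.3 against 34.4 with cytokines alone. Ttr made up 40.1% to 52.2% of the summed alpha-cell members with cytokines and 83.8% to 87.4% without.

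The Irx1/Irx2 and Irx1/Ttr ratios did not pass, with adjusted exact permutation p = 0.155 and 0.205, and the Irx1 counts with cytokines were at most 6 per library. Gc/Hhex, a pair across the lineages, did not pass either (adjusted exact permutation p = 0.0865). Irx2/Ttr, a pair of alpha-cell genes, passed (adjusted exact permutation p = 0.015). All 3 pairs of delta-cell genes also missed the threshold. Hhex/Casr gave an adjusted exact permutation p = 0.0992, Casr/Rbp4 0.0656 and Hhex/Rbp4 0.5. Without the inhibitor these ratios shifted by -0.01, -0.07 and -0.07 on the log2 scale, in that order. With it, Hhex/Casr shifted by 1.13 and Casr/Rbp4 by -0.69, against 0.43 for Hhex/Rbp4.

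**Figure D3:**
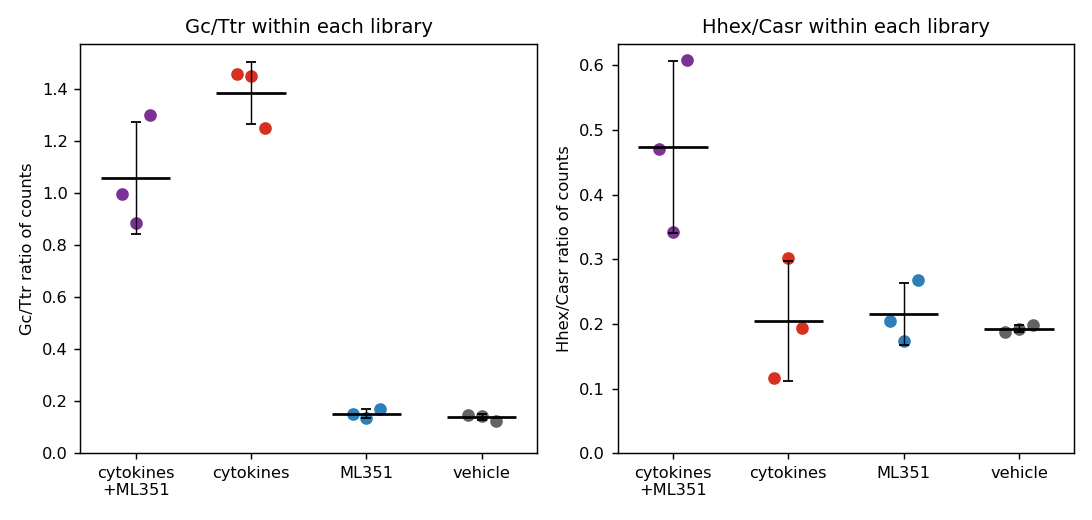
Ratio of counts of Gc to Ttr and of Hhex to Casr within each library, with the mean of 3 and SD. Gc/Ttr averages 1.06 in the combination and 1.39 with cytokines, against 0.153 with ML351 and 0.139 with vehicle, while Hhex/Casr averages 0.473 in the combination, 0.204 with cytokines, 0.215 with ML351 and 0.193 with vehicle.

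ML351 alone against vehicle left all 7 genes within overlapping ranges. In edgeR 0 of 7 were called, beside 0.0355% of all genes called either way, and the groups were apart for 7.32% of all genes in the lower direction and 8.57% in the higher. By unadjusted p under 0.05, 1265 genes passed. The intervals of the log2 fold change were -0.26 to 0.26 for Casr, -0.33 to 0.18 for Rbp4, -0.31 to 0.33 for Irx2 and -0.24 to 0.49 for Hhex. They were wider for Gc (-0.39 to 0.57), Ttr (-0.54 to 0.45) and Irx1 (-0.62 to 1.16), so changes of these sizes could not be told from none. Among the ML351 libraries, replicate 3 was the lowest for Irx1, Irx2, Gc, Ttr and Casr. Its glucagon transcript, Gcg, was also lowest, at 26690 CPM beside 36880 and 38880 CPM in the other ML351 libraries and 33880 to 37940 CPM with vehicle. Its pancreatic polypeptide transcript, Ppy, was at 7114 CPM, near the 7551 to 8833 CPM with vehicle, whereas ML351 replicates 1 and 2 had 2323 and 2421 CPM. Whether the makeup of these libraries bears on the members' levels was not tested.

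**Figure D4:**
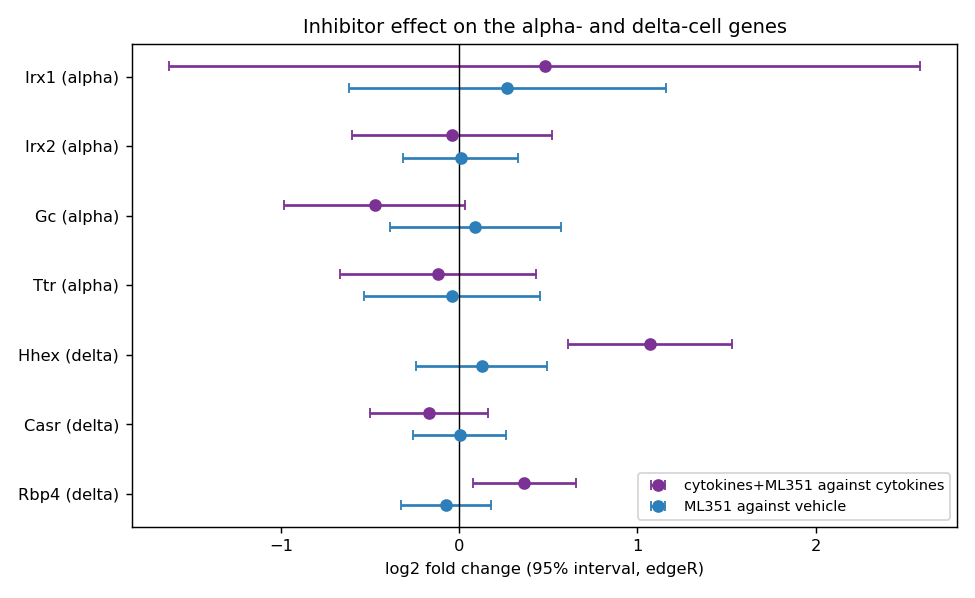
Log2 fold change with its 95% interval for the inhibitor effect with cytokines (combination against cytokines) and without them (ML351 against vehicle). Hhex with cytokines stands at 1.07 (0.61 to 1.53), and every interval without cytokines spans 0.

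In cytokine-treated islets the inhibitor went with a higher level of a single member, the delta-cell regulator Hhex. It had 4.25, 2.91 and 3.94 CPM in the combination (87, 66 and 76 counts) and 1.17, 2.40 and 1.76 CPM with cytokines (29, 49 and 35 counts). Each combination library was above each cytokine library, and the level was 2.10-fold that with cytokines alone (log2 fold change 1.07, interval 0.61 to 1.53, edgeR adjusted p = 0.0292). One of 7 members was thus called higher and did not overlap, where 0.646% of all genes were called higher and 10.1% did not overlap in that direction. The combination averaged 3.70 ± 0.70 CPM, still below the 13.0 ± 1.17 CPM with ML351 and 11.9 ± 1.19 CPM with vehicle (SD, n = 3 each).

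Whether the Hhex difference was called depended on single libraries. It missed the threshold without cytokine replicate 1 (log2 fold change 0.81, edgeR adjusted p = 0.0894), without cytokine replicate 4 (1.07, 0.0865), without combination replicate 1 (0.93, 0.0794) and without combination replicate 4 (1.00, 0.0525). It also missed it when only these 6 libraries were fitted (1.07, adjusted p = 0.134). Over the 20 alternatives the adjusted p ran from 0.00147 to 0.134 and the log2 fold change from 0.81 to 1.35, always higher. An exact two-sided permutation test on its log2 CPM gave p = 0.1, the smallest that 3 libraries against 3 allow. The Hhex/Casr ratio was 0.470, 0.342 and 0.608 in the combination and 0.117, 0.302 and 0.194 with cytokines (exact permutation p = 0.1). The groups did not overlap in this ratio either, whereas they did in Hhex/Rbp4 (exact permutation p = 0.2).

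The other 6 members overlapped between the combination and cytokines, and none passed. Rbp4 came nearest, with a log2 fold change of 0.37 (interval 0.08 to 0.65, edgeR adjusted p = 0.199), and Gc had -0.48 (-0.98 to 0.03, adjusted p = 0.35). Casr had -0.17 (adjusted p = 0.642), Ttr -0.12 (0.865), Irx2 -0.04 (0.979) and Irx1 0.48 (0.865). The change of the cytokine effect with the inhibitor, tested as an interaction, passed for 0 of 7 members, beside 0.0071% of all genes. Hhex had an interaction of 0.94 (SE 0.28, edgeR adjusted p = 0.37, unadjusted p = 0.00367), and Rbp4 and Gc had 0.44 and -0.57 (adjusted p = 0.538 and 0.672). Over all genes 1160 passed an unadjusted p under 0.05, and DESeq2 called 58.

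Of 7 further delta-cell genes 0 were called in the combination against cytokines. Their median log2 fold change was -0.22, with a range of -1.07 to 0.57, and Sst was the highest of them. Sst had 140, 172 and 112 CPM in the combination and 103, 73.0 and 110 CPM with cytokines, also without overlap (log2 fold change 0.57, edgeR adjusted p = 0.139). Ptprz1, chosen after its values were seen, lay in the other direction (-1.07, adjusted p = 0.0567).

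Markers of other cell types that a whole islet preparation can hold were set beside this comparison. The summed acinar markers, 11 of 12 of which were measured, were 1050, 1280 and 877 CPM in the combination and 29.8, 530 and 770 CPM with cytokines, without overlap, although 0 of 11 were called (edgeR adjusted p = 0.411 to 0.885). Cytokine replicate 1 was the lowest for both Hhex and this sum. Other libraries ran the other way. Combination replicate 2 had the highest sum of its group (1280 CPM) and the lowest Hhex (2.91 CPM). In vehicle replicates 1, 2 and 4 the sums were 550, 331 and 150 CPM, beside Hhex at 10.7, 12.2 and 13.0 CPM. The 10 endothelial markers summed to 14.1, 11.1 and 16.8 CPM in the combination and 18.7, 19.5 and 27.1 CPM with cytokines, in the opposite direction to Hhex. Kdr (-0.95), Plvap (-1.09) and Cdh5 (-1.35) of that list, Krt7 (-0.23) of the ductal list and C1qc (-0.48) of the macrophage list were called lower in the combination, as were 0.788% of all genes. The 8 measured ductal markers summed to 3520 to 3680 CPM in the combination and 3300 to 4130 CPM with cytokines. Their single log2 fold changes ran from -0.27 to 1.98 (median 0.08). The highest was Sox9, which averaged 5.84 CPM in the combination and 1.51 CPM with cytokines (edgeR adjusted p = 0.221). Krt19 had 1.33 (adjusted p = 0.597), and both were chosen after their values were seen. The 10 macrophage markers summed to 299 to 306 CPM in the combination and 329 to 348 CPM with cytokines. The part of these differences in the Hhex result was not tested.

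Further lineage genes give the setting of the cytokine fall, beside the 37.2% of all genes called lower. Of 10 alpha-cell genes outside the set 10 fell and 0 rose with cytokines (median log2 fold change -3.63). Among them were the chromatin remodeller Smarca1 (-3.43) and the glutamate receptor gene Gria3 (-3.07). Gcg had 631, 1111 and 1547 CPM in the combination and 700, 670 and 1284 CPM with cytokines, against 26690 to 38880 CPM with ML351 and 33880 to 37940 CPM with vehicle. Of 8 further delta-cell genes 7 were measured and 7 fell (median -2.11), among them Sst (-3.73), the ghrelin receptor gene Ghsr (-3.25) and the fatty acid receptor gene Ffar4 (-2.65). All 3 PP-cell genes fell (Pyy -5.18, Ppy -3.05, Fxyd6 -1.38).

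Beta-cell markers fell for 8 of 10 (median -2.95), including Ucn3 (-5.03), Slc2a2 (-3.95) and Pdx1 (-3.35). Of 9 measured endocrine transcription factors shared by islet cell types, 8 fell and 1 rose (median -1.48), with Nkx2-2 at -2.60, Pax6 at -1.85 and Neurod1 at -1.85. All 10 endothelial markers fell as well (median -2.39), among them Kdr (-3.12), Plvap (-2.88) and Flt1 (-2.67). Their sum was 18.7 to 27.1 CPM with cytokines and 95.9 to 104 CPM with vehicle. With cytokines 37.2% of all genes were called lower and 35.3% higher. Ductal markers rose for 6 of 8 measured (Krt8 2.94, Krt18 2.22, Krt7 0.78), macrophage markers rose for 6 and fell for 1 of 10 (Cd68 2.89, C1qb 1.38, C1qc 1.04), and 0 of 11 acinar markers were called (Cela3b 0.70, Pnlip 0.73, Cel 0.70). The part of these shifts in the members' falls was not tested.

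**Figure D5:**
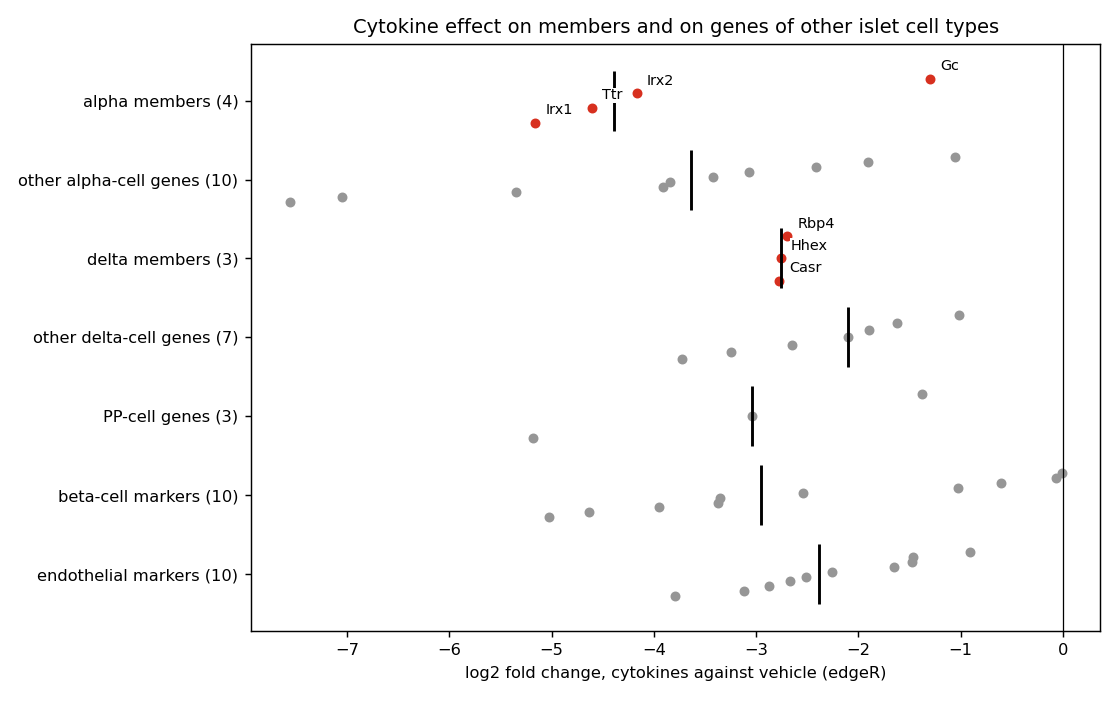
Log2 fold change of cytokines against vehicle for the alpha- and delta-cell members (red) and for genes of other lists (grey), with the median of each row as a bar. The medians are -4.39 for the alpha members, -3.63 for other alpha-cell genes, -2.76 for the delta members and -2.11 for other delta-cell genes.

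Genes that act with the members' products did not move as a block. Of all genes 37.2% were called lower and 35.3% higher with cytokines. The counts in this and the next paragraph were not tested against those shares. In the retinol and Groucho lists the shares that fell and that rose lay below them. Of 12 measured genes of retinol and retinoic acid handling, the pathway of the Rbp4 cargo, 3 fell and 3 rose with cytokines (median -0.12). Stra6l, which encodes a receptor for retinol-binding protein, rose by 3.47 on the log2 scale and the retinal reductase gene Dhrs3 by 1.54, while Rxra, a nuclear receptor of the pathway, fell by 0.51. Thyroid hormone handling, which concerns the Ttr cargo, had 4 fallers and 0 risers of 6 measured (median -0.65), among them the transporter gene Slc16a10 (-1.89), the deiodinase gene Dio1 (-1.11) and the receptor gene Thrb (-0.58). Of 4 measured vitamin D genes, which concern the Gc cargo, Vdr, the vitamin D receptor, fell (-1.77), and 3 rose, among them the activating enzyme gene Cyp27b1 (2.19) and the endocytic adaptor gene Dab2 (0.97). Cyp27b1 averaged under 1 CPM in every group.

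Of 15 measured genes of calcium-sensing receptor signalling, 8 fell and 4 rose with cytokines (median -0.26). Itpr1, an inositol trisphosphate receptor, had -2.34 and the inhibitory G protein subunit gene Gnai1 -2.11, while the protein kinase C gene Prkca had 1.37. Of 6 Groucho family genes, some of whose products act as corepressors with Hhex, 2 fell (Tle2 -1.87, Tle6 -1.77) and 2 rose, Tle3 (0.64) among them. Hepatocyte secreted protein genes, 3 of 10 measured, were checked because Gc, Ttr and Rbp4 are also liver genes. Fga (5.70) and Fgb (2.43) rose while Apoa2 fell (-1.65). The sum of these 3, mostly Fga and Fgb, was 117 to 150 CPM with cytokines and 17.1 to 21.0 CPM with vehicle. It moved opposite to the liver-type members, whereas Apoa2 moved in their direction. Most of the list was absent from the count table, for a reason that is not given. Of 6 adipocyte markers 1 was measured, Cidec, with a log2 fold change of 2.85 that was not called (edgeR adjusted p = 0.109).

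The genes most like each member in pattern had the smallest root mean square difference of log2 CPM. Values were centred on each gene's mean over the 12 libraries. The 8878 candidates left out the members, unnamed gene models, names ending in Rik or -ps, Xist and Y-linked genes. Their log2 CPM averaged 3 or more. Irx1, Irx2 and Hhex themselves lay below that limit. The nearest were Klhl13 for Irx1 (difference 0.459), Hs3st6 for Irx2 (0.164), Slc17a9 for Gc (0.156) and Klb for Ttr (0.231). For the delta-cell genes they were Itpr2 for Hhex (0.293), Pnmal2 for Casr (0.133) and Suox for Rbp4 (0.169). Second in the same order came Wnk3 (0.631), Fam101a (0.217), Kctd12 (0.196), Ucn3 (0.240), Smim10l2a (0.304), Mfsd6l (0.145) and Mdm1 (0.175). The points share the same 12 libraries and the same split by cytokines. Irx1, with the fewest counts, had the least close neighbour.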

How the data were processed

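The deposited values are raw counts of reads per gene symbol, 1 column for each of the 12 libraries, not normalized. Per the labels' protocols the libraries were unstranded, so reads of a gene and an antisense partner cannot be told apart. The submitters' processing notes name FastQC, STAR, Subread, featureCounts, DESeq2 and the build mm10, with no versions. The annotation the authors counted with is not given in the sources used here. GENCODE M21 on GRCm38 gave coordinates and exon lengths.

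Groups came from the labelled treatment. The main test was edgeR's quasi-likelihood test (version 4.0.16, R 4.3.3, glmQLFTest after a robust glmQLFit). It used TMM scaling, a mean per group over all 12 libraries, and filterByExpr, which removed no gene. P-values were Benjamini-Hochberg adjusted over 14089 genes per contrast and called at 0.05. SE was taken as |log2 fold change| over the root of F. Ratios had 0.5 count added. DESeq2 1.42.0 was an alternative, with other scalings and filters, a replicate block, fits of the compared groups alone and each library left out. In no pair of replicates did counts match within sampling noise.

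The members and the 17 gene lists were chosen with earlier results of these data known. All members were named, as were the 3 genes of each list with the smallest p for cytokines against vehicle, list genes called in another contrast, and the 2 genes most like each member. One gene that this rule names is not reported here.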

Additional observations from a re-analysis of the deposited data

How the results depend on the processing

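All 7 members were called lower with cytokines, with and without the inhibitor, under each alternative run. For ML351 against vehicle and for the interaction 0 of 7 were called wherever an adjusted p was given. DESeq2 gave none for Irx1 in ML351 against vehicle, nor for Irx1, Irx2, Hhex and Casr in the interaction. For the combination against cytokines 1 member, Hhex, was called, but 0 in the fit of the compared groups alone and 0 to 1 when single libraries were left out. Over the members' log2 fold changes 5 alternative values lost a call (all Hhex), 9 others moved by more than their error, and 678 did neither. Called fold changes changed sign in 0 alternative values, and those not called in 43. Hhex kept its call under the replicate block (1.22, edgeR adjusted p = 0.0477). Counts over all genes were less stable. For ML351 against vehicle 5 genes were called, against 110 with DESeq2, 0 with RLE scaling, 0 with the replicate block, 16 with the compared groups alone and 0 to 17 with a library left out. For the combination against cytokines 202 were called, against 527 with DESeq2, 78 with library totals alone, 53 with the replicate block, 59 with the compared groups alone and 54 to 236 with a library left out. The interaction had 1, against 58 with DESeq2, 0 with library totals alone, 0 with the replicate block and 0 to 1 with a library left out. The cause of these differences was not tested. The share of calls that were higher was 45% for the combination against cytokines, 33.3% with RLE, 33% with DESeq2 and 71.8% with library totals alone. For ML351 against vehicle it was 40%, and 85.7% with library totals alone. Same-numbered libraries did not deviate together (correlations -0.377 to 0.202 over 13 pairs, 2 of them over 0.1, and 3 of 12 libraries closest to their own number), so the numbers were not taken as pairs. The number of shifted member ratios was 15, and 15 to 19 with a library left out. The fit of the combination and cytokine groups alone gave no value for Irx1, whose few counts limit every comparison within cytokine-treated islets.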
